A study of Mus musculus with 50 samples.

Results

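Ileal nodes were set against colonic nodes of mice raised on a diet with sufficient vitamin A, using 5 ileal and 5 colonic libraries of the 50 libraries in the series. The libraries were taken by the node and diet in the sample labels. The gene lists counted below were chosen with earlier results of these data known. Ileal nodes drain the last part of the small intestine and colonic nodes drain the large intestine. Lymph fluid enters such a node under its capsule, passes through sinuses lined by lymphatic endothelium and macrophages, and leaves through the medulla. The nodes of the small intestine receive more dietary fat and vitamin A derivatives than those of the colon, and retinoic acid made from vitamin A shapes immune and stromal cells there.

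All mice were C57BL/6 (written C57B6 for the sampled mice), taken at postnatal day 56, from a later litter of C57BL/6J dams. Dams were placed 3 weeks ahead of breeding on chow deficient in vitamin A (deficient diet) or on the same ingredients supplemented with 20 IU/g of it (sufficient diet). The series holds 5 libraries for each of duodenal, jejunal, ileal, colonic and inguinal nodes on each diet, and the labels name no genetic change. In both ileal and colonic nodes on the sufficient diet, libraries 1 and 2 came from females and 3, 4 and 5 from males. All deficient libraries came from females. The labels do not tie nodes to mice or say whether nodes were pooled. The p-values therefore reflect only how much libraries of the same node and diet vary, which may be technical. That spread was estimated over all 50 libraries of the series and not from the ileal and colonic ones alone.

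RNA was sequenced after poly(A) selection and each value is a TMM-normalised CPM (counts scaled to a common library size). Estimated counts per library totalled 6355492 to 8487925 in ileal and 5335369 to 7790220 in colonic nodes. Some libraries stood apart from the others of their node. The ribosomal RNA gene Rn18s-rs5 took 2.88% of the counts of ileal library 4 and at most 0.972% in the other ileal libraries, and 7.77% and 4.56% in colonic libraries 2 and 4 against at most 0.889% in the other colonic ones. Genes of the exocrine pancreas, an organ that lies beside the mesentery, summed to 0.411% in ileal library 5 and 0.376% in colonic library 5, and to at most 0.00255% in the other 8. Xist, expressed from the inactive X chromosome, ranged over 608 to 876 CPM in the 4 libraries labelled female and over 1.63 to 57.1 CPM in the 6 labelled male.

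The first question was how far nodes of neighbouring gut segments differ. A gene is described as called, higher or lower where edgeR's quasi-likelihood test gave a Benjamini-Hochberg adjusted p under 0.05 over the 18077 genes tested, and log2 fold changes are ileal over colonic. Of those genes 928 were called, 5.13%, and 2730 had an unadjusted p under 0.05. Ileal nodes had 740 higher genes (4.09%) and 188 lower genes (1.04%). A change of at least 2-fold was seen in 189 of the higher and 55 of the lower genes. Every ileal library lay on one side of every colonic library for 728 genes (4.03%), of which 522 were called. The median log2 fold change over all genes tested was -0.02. The count of lower genes moved most with the libraries, to 102 without ileal library 2, 123 without ileal library 4 and 104 without colonic libraries 2 and 4, which had the most ribosomal RNA.

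**Figure D1:**
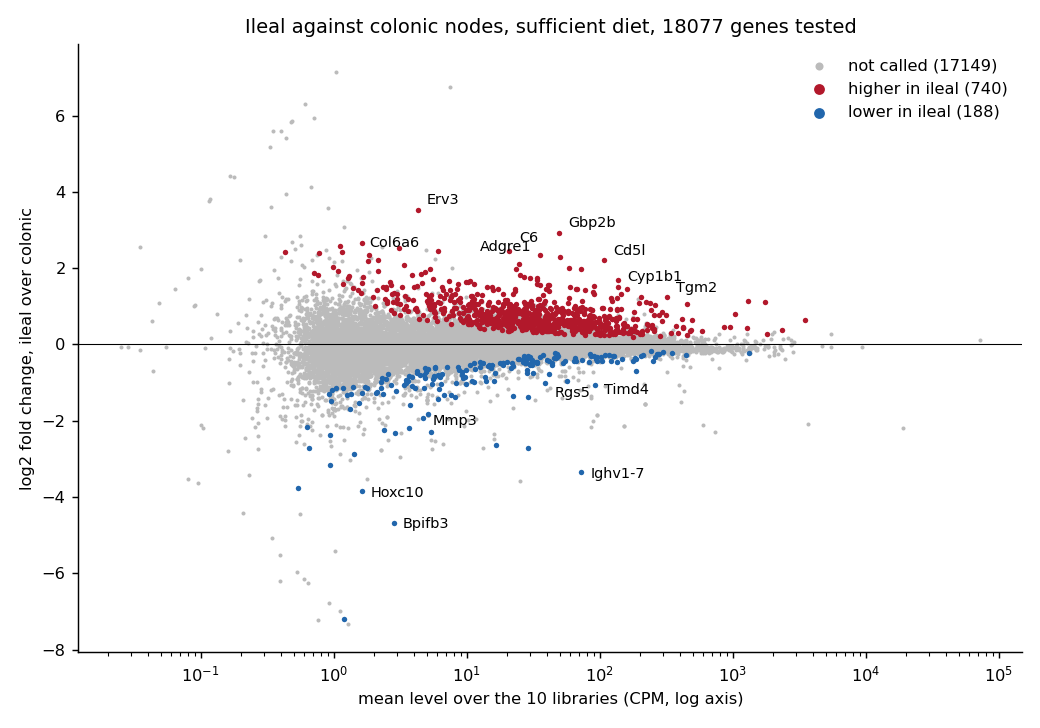
Mean level over the 10 libraries (CPM, log axis) against the log2 fold change of ileal over colonic nodes for the 18077 genes tested, with the 740 genes higher in ileal nodes in red, the 188 lower ones in blue and the rest in grey. The higher calls outnumber the lower ones over most of the range of levels, and Bpifb3, Hoxc10 and the antibody segment Ighv1-7 lie among the lowest called values.

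Macrophages of the sinuses and medulla clear particles and dying cells from lymph, and their genes made up the list with the largest share of members called. Of 20 tested members 13 were higher and 1 was lower in ileal nodes, and the list's median log2 fold change was 0.68. Adgre1, which encodes the macrophage surface protein F4/80 (chr17:57358691-57483527, plus strand; gene positions are from GENCODE M21 on GRCm38), measured 76.8, 84.8, 93.97, 85.8 and 73.6 CPM in ileal libraries 1 to 5, against 19.1, 20.9, 12.5, 12.6 and 19.7 CPM in colonic libraries 1 to 5. The lowest ileal library thus lay more than 3 times above the highest colonic one (log2 fold change 2.30, SE 0.19, adjusted p = 4.8e-11). Csf1r, the receptor for the growth factor that macrophages depend on, which was listed with monocytes, measured 574, 684, 566, 649 and 592 CPM in ileal libraries, against 311, 315, 269.5, 285 and 286 CPM in colonic libraries (log2 fold change 1.06, SE 0.11, adjusted p = 8.4e-09). Both groups were tight and far from overlapping. Cd5l, a secreted protein of tissue macrophages, was more variable within each node, at 144, 213, 219, 209.9 and 98.7 CPM in ileal and 30.9, 79.9, 25.1, 17.04 and 46.5 CPM in colonic libraries (log2 fold change 2.20, SE 0.32, adjusted p = 5.1e-06).

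The remaining higher members had smaller differences. Siglec1, the sialic acid receptor of sinus macrophages also known as CD169, averaged 347 ± 103 CPM in ileal and 173 ± 60.6 CPM in colonic nodes (log2 fold change 1.02, SE 0.23, adjusted p = 0.00251). The scavenger receptor Marco, which sinus macrophages and medullary lymphatic endothelium both express, averaged 1793 ± 302 and 803 ± 155 CPM in ileal and colonic nodes (log2 fold change 1.14, SE 0.18, adjusted p = 2.3e-05). The iron exporter Slc40a1 (1.04), the transcription factor Nr1h3 (0.68), the receptors Mertk (0.69) and Axl (0.55), which bind dying cells, and the adhesion molecule Vcam1 (0.50) were also higher. The call of Axl was lost without ileal library 4 (adjusted p = 0.0788). With female libraries alone (2 per node) 1 member was higher and 1 lower, and with male libraries alone (3 per node) 12 were higher and 1 lower. The female fit estimated its spread over all 35 female libraries of the series, the deficient ones included. The male fit used 15 libraries, all on the sufficient diet, so the counts of the sexes are not like for like. Not every macrophage gene followed. Cd68 (0.34, adjusted p = 0.358), Cd163 (0.31, adjusted p = 0.786) and Folr2 (-0.51, adjusted p = 0.234) were not called, and Vsig4 and Clec4f were too low to test.

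Timd4, a phosphatidylserine receptor of long-lived resident macrophages (chr11:46810800-46844332, plus strand), went the other way. It measured 61.6, 49.95, 61.6, 74.8 and 49.9 CPM in ileal libraries, against 121, 107, 136, 146 and 111 CPM in colonic libraries (log2 fold change -1.06, SE 0.13, adjusted p = 2.6e-07). The groups did not overlap. Among 16 genes of alternatively activated macrophages 2 were higher and 2 lower. The mannose receptor Mrc1, also a marker of lymphatic sinuses, averaged 113 ± 11.02 CPM in ileal and 41.7 ± 12.3 CPM in colonic nodes (log2 fold change 1.44, SE 0.17, adjusted p = 6.4e-08), and Lyve1 is given with the lymphatic genes. The chemokine Ccl8 averaged 1.38 ± 0.625 CPM in ileal and 6.01 ± 4.30 CPM in colonic nodes (log2 fold change -2.18, SE 0.41, adjusted p = 0.00033). Colonic library 1, at 13.3 CPM, was the highest, and ileal library 5 lay just above colonic library 2. The lectin Clec10a averaged 21.1 ± 2.36 CPM in ileal and 35.8 ± 5.28 CPM in colonic nodes (log2 fold change -0.75, SE 0.18, adjusted p = 0.00588). In bulk libraries such as these, fewer cells of a type and less RNA per cell cannot be told apart.

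**Figure D2:**
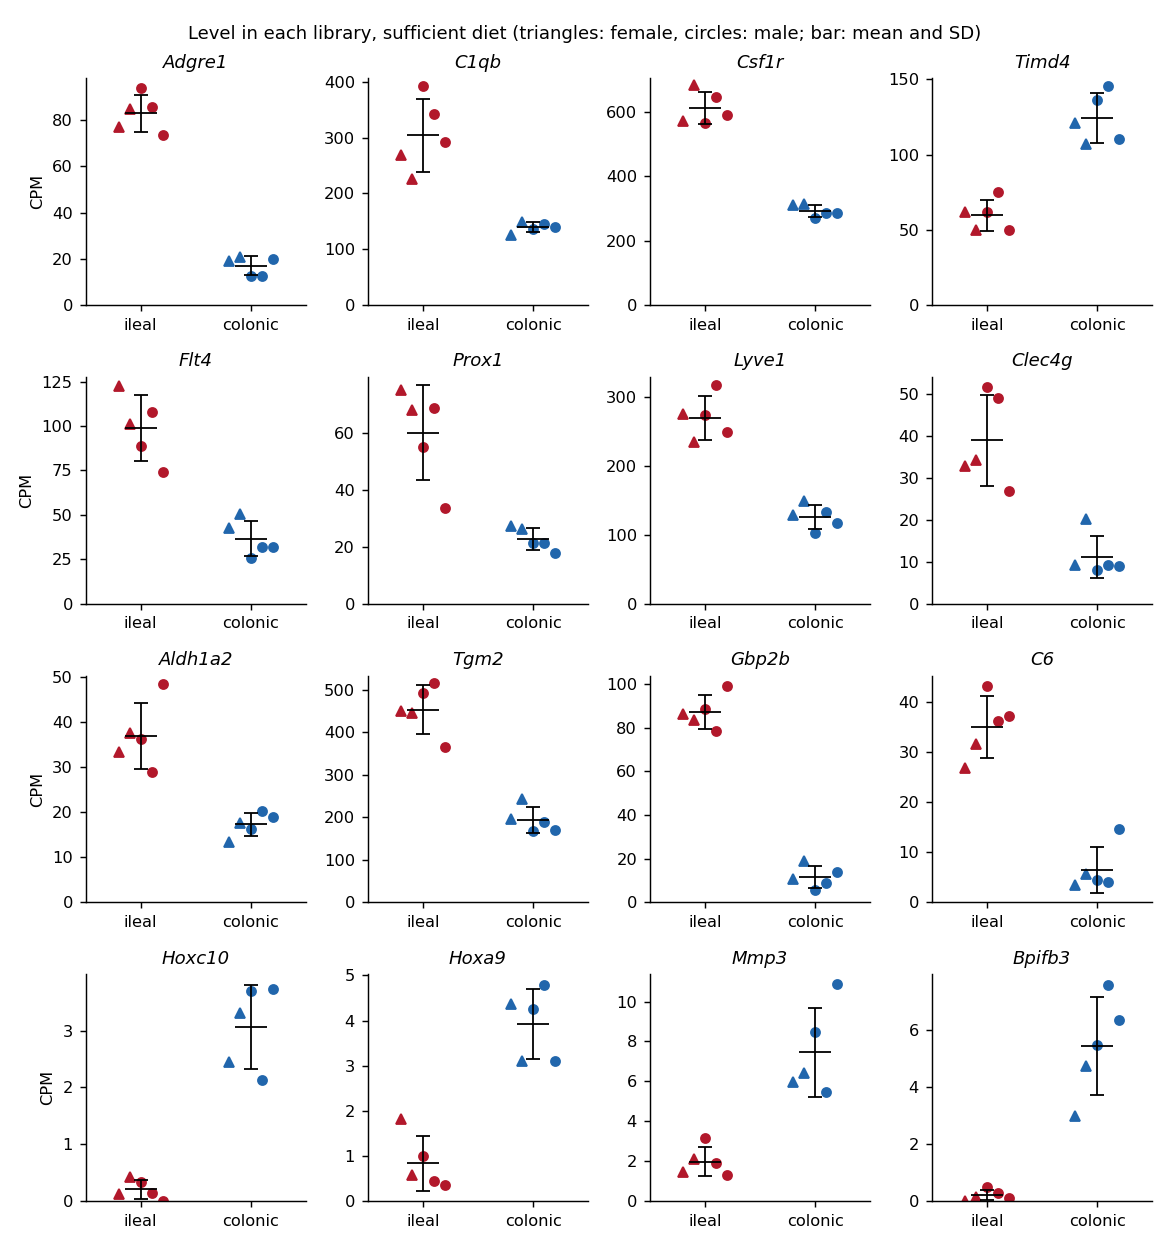
Level of 16 genes (CPM) in each of the 5 ileal (red, left) and 5 colonic (blue, right) libraries, with triangles for females, circles for males and a bar for the mean and SD. In each panel every ileal library lies on one side of every colonic library, with higher ileal values for 11 genes and lower ileal values for Timd4, Hoxc10, Hoxa9, Mmp3 and Bpifb3.

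C1q, the molecule that starts the classical complement pathway, is built from 3 chains whose genes lie next to each other on chromosome 4 and are transcribed in macrophages. C1qb (chr4:136880129-136886187, minus strand) measured 268, 225, 393, 342 and 292 CPM in ileal libraries, against 125, 149, 137, 144 and 139.7 CPM in colonic libraries (log2 fold change 1.10, SE 0.15, adjusted p = 7.4e-07). C1qc (chr4:136889804-136893065, minus strand) averaged 328 ± 58.7 CPM in ileal and 152 ± 17.7 CPM in colonic nodes (log2 fold change 1.08, SE 0.15, adjusted p = 1.5e-06). C1qa (chr4:136895917-136898803, minus strand) averaged 317 ± 53.9 CPM in ileal and 168 ± 19.1 CPM in colonic nodes (log2 fold change 0.89, SE 0.13, adjusted p = 4.5e-06). All 3 genes separated the groups completely, with colonic library 2 the highest colonic library for C1qb and C1qc.

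Because these neighbouring genes were higher together, the promoters of C1qb (chr4:136886151-136886450, minus strand) and C1qc (chr4:136892865-136893164, minus strand) are shown, taken from RefSeq on GRCm38.p6 from 250 bases before to 50 bases after the start. They were chosen after the values had been seen. Capitals mark matches on either strand to GAGGAA, the core bound by the myeloid factor PU.1, to TGCTGA, part of the site of MAF factors, or to AGGTCA, part of the site of retinoic acid receptors. Both promoters hold 1 GAGGAA. The promoter of C1qb also holds 1 TGCTGA and that of C1qc 1 AGGTCA, and no matches overlap. Of 32851 mouse promoters of this length in the table, 28.3% hold GAGGAA, 19.5% TGCTGA and 16.3% AGGTCA. A match describes the letters and not binding.
C1qb: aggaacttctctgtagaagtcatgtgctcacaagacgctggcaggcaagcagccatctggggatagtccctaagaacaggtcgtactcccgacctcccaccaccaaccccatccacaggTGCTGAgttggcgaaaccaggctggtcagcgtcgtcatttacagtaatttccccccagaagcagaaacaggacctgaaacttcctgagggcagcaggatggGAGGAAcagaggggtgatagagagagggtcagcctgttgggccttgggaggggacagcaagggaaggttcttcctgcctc
C1qc: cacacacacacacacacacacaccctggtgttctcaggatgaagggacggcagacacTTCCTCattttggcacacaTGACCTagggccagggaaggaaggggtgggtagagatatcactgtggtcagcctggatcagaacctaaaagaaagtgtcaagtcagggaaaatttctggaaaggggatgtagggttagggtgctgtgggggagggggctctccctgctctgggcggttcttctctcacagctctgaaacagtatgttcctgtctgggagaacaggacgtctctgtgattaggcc

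Lymphatic endothelium lines the sinuses and the vessels that carry lymph. Of 22 tested genes of these cells 11 were higher in ileal nodes and 0 lower, with a median log2 fold change of 0.65. Flt4, the receptor for vascular endothelial growth factor C (chr11:49609263-49652739, plus strand), measured 123, 101, 88.9, 108 and 73.9 CPM in ileal libraries, against 42.3, 50.7, 25.6, 32.1 and 31.7 CPM in colonic libraries (log2 fold change 1.46, SE 0.16, adjusted p = 9.3e-09). Prox1, the transcription factor that sets lymphatic identity (chr1:190118035-190170714, minus strand), measured 75.01, 68.02, 55.00, 68.7 and 33.5 CPM in ileal libraries, against 27.1, 26.3, 21.1, 21.4 and 17.9 CPM in colonic libraries (log2 fold change 1.39, SE 0.16, adjusted p = 4.3e-08). Neither gene overlapped between the nodes, and ileal library 5 was the lowest ileal library for both. With female libraries alone 4 members were higher, and with male libraries alone 11. Lyve1, a hyaluronan receptor of lymphatic vessels and some macrophages, averaged 270.0 ± 32.00 CPM in ileal and 126 ± 17.7 CPM in colonic nodes (log2 fold change 1.10, SE 0.14, adjusted p = 6.4e-07).

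Other members of the list were higher by varied amounts. The scavenger receptor Stab2 averaged 287 ± 44.5 CPM in ileal and 122 ± 30.1 CPM in colonic nodes (log2 fold change 1.25, SE 0.15, adjusted p = 2e-07). The lectin Clec4g averaged 38.9 ± 10.8 CPM in ileal and 11.1 ± 5.04 CPM in colonic nodes (log2 fold change 1.82, SE 0.25, adjusted p = 1.6e-06), and colonic library 2, at 20.1 CPM, stood above the other colonic libraries. Reln, a secreted matrix protein (1.78), the tight junction gene Cldn11 (0.88) and Stab1 (0.67) were higher too. Itga2b (0.61) was called, but not without ileal libraries 3, 4 or 5 or colonic libraries 3 or 4 (adjusted p 0.0606 to 0.135). Ackr4, of the ceiling of the subcapsular sinus (0.12, adjusted p = 0.91), and Madcam1, of its floor (-0.01, adjusted p = 0.989), were not called. The chemokine Ccl21a (-0.15, adjusted p = 0.68), which has near-identical copies that share reads, was not called either. The list of sinus macrophages shares Marco and Cd209b with this one, and the summed share of counts of the lymphatic list ran from 0.452% to 0.588% in ileal libraries and from 0.326% to 0.440% in colonic libraries. The summed share of the macrophage list ran from 0.427% to 0.535% in ileal and from 0.235% to 0.283% in colonic libraries. Both sums include Marco at the high levels given above, so they are not independent, and neither was computed without it.

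Complement proteins tag and puncture microbes. Of 23 tested complement genes, the C1q genes included, 10 were higher and 0 lower, with a median log2 fold change of 0.32. C6, a component of the membrane attack complex (chr15:4727175-4814967, plus strand), measured 26.8, 31.8, 43.3, 36.3 and 37.3 CPM in ileal libraries, against 3.54, 5.59, 4.52, 4.13 and 14.6 CPM in colonic libraries (log2 fold change 2.46, SE 0.37, adjusted p = 7.2e-06). Colonic library 5 stood above the other colonic libraries and still lay below every ileal one. Hc, which encodes C5, averaged 15.3 ± 6.26 CPM in ileal and 5.19 ± 3.21 CPM in colonic nodes (log2 fold change 1.65, SE 0.39, adjusted p = 0.00554). The alternative pathway gene Cfb (0.66), the classical pathway gene C2 (0.75) and the regulators Clu (0.43) and Cd55 (0.38) were higher by less. C3 (0.33, adjusted p = 0.184), C4b (0.30, adjusted p = 0.0514) and C7 (-0.25, adjusted p = 0.91) were not called, and Cfd, which fat cells express, had a log2 fold change of -1.07, adjusted p = 0.439.

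The list of Cd300 family receptors and C-type lectins, which is not confined to myeloid cells, had 11 of 23 tested members higher and 1 lower. Its higher genes Clec4g and Clec9a are also counted with the lymphatic genes and the type 1 dendritic cell genes, in that order. Its lower gene, Clec10a, is also counted with the alternatively activated macrophage genes and the type 2 and migratory dendritic cell genes. Cd300a, an inhibitory receptor, averaged 53.3 ± 9.34 CPM in ileal and 24.2 ± 2.82 CPM in colonic nodes (log2 fold change 1.13, SE 0.18, adjusted p = 2.5e-05). Cd300lg, which is expressed on endothelium, averaged 112 ± 22.7 CPM in ileal and 58.3 ± 7.12 CPM in colonic nodes (log2 fold change 0.93, SE 0.15, adjusted p = 1.7e-05). Cd300c (1.27), Cd300c2 (0.91), Cd300lb (1.52), Clec1a (0.96) and Clec1b (1.11) were higher. Cd300ld4, outside that list, was lower, at 1.88 ± 1.68 CPM in ileal and 8.93 ± 5.50 CPM in colonic nodes (log2 fold change -2.28, SE 0.49, adjusted p = 0.00171). It was not called with male libraries alone (adjusted p = 0.103), and its value is uncertain because members of this cluster are close copies among which reads can be split.

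Guanylate-binding proteins and immunity-related GTPases restrict intracellular microbes and are induced by interferon. Of 17 tested members 4 were higher and 0 lower, with 2 higher without colonic libraries 2 and 4. Gbp2b (chr3:142594847-142619179, plus strand) measured 86.3, 83.7, 88.5, 78.6 and 99.2 CPM in ileal libraries, against 10.5, 19.04, 5.75, 9.05 and 13.8 CPM in colonic libraries (log2 fold change 2.93, SE 0.28, adjusted p = 5.7e-10). The lowest ileal library was more than 4 times the highest colonic one, although reads of Gbp2b may be shared with related genes of its cluster. Gbp3 (0.59, adjusted p = 0.00434) and Gbp7 (0.74, adjusted p = 0.0116) were higher by less. Gbp7 was not called without colonic libraries 2 and 4 (adjusted p = 0.0531), and the call of Iigp1 (0.88, adjusted p = 0.0208) was lost without ileal library 1 or colonic libraries 3 or 4 (adjusted p 0.0563 to 0.0928). Of 19 tested genes of the broader interferon response none was called, and 2 were higher with male libraries alone. All 19 had a positive log2 fold change (median 0.63), as for Mx1 (1.03, adjusted p = 0.249) and Ifit3 (0.95, adjusted p = 0.548).

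Genes that make or respond to retinoic acid were examined because the series is about vitamin A. In the metabolism list 3 of 13 tested members were higher and 0 lower, with 6 of 13 log2 fold changes positive and a median of -0.08. In the response list 5 of 15 were higher and 0 lower, with 11 of 15 positive and a median of 0.13. Dhrs3 is counted in both lists. Aldh1a2, which converts retinal to retinoic acid (chr9:71215789-71296243, plus strand), measured 33.3, 37.5, 36.3, 29.00 and 48.6 CPM in ileal libraries, against 13.3, 17.6, 16.3, 20.2 and 18.96 CPM in colonic libraries (log2 fold change 1.11, SE 0.27, adjusted p = 0.00625). Dhrs3, which retinoic acid induces and which turns retinal back to retinol, averaged 60.4 ± 6.81 CPM in ileal and 33.5 ± 6.22 CPM in colonic nodes (log2 fold change 0.85, SE 0.16, adjusted p = 0.00031). Both genes separated the groups. The related enzymes Aldh1a1 (0.24, adjusted p = 0.849) and Aldh1a3 (-0.43, adjusted p = 0.413), the storage enzyme Lrat (0.52, adjusted p = 0.3) and the degrading enzyme Cyp26b1 (0.44, adjusted p = 0.602) were not called.

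Among response genes, the transglutaminase Tgm2 (chr2:158116402-158146436, minus strand) measured 450.0, 445, 494, 516 and 365 CPM in ileal libraries, against 196, 243, 167, 188 and 170.3 CPM in colonic libraries (log2 fold change 1.24, SE 0.17, adjusted p = 1.8e-06). The nuclear receptor Rxra averaged 133 ± 17.05 CPM in ileal and 85.9 ± 8.67 CPM in colonic nodes (log2 fold change 0.63, SE 0.11, adjusted p = 0.0001). Asb2, a ubiquitin ligase subunit, averaged 78.5 ± 10.9 CPM in ileal and 50.5 ± 5.07 CPM in colonic nodes (log2 fold change 0.63, SE 0.11, adjusted p = 0.00016), and Hic1, a transcriptional repressor, was higher by 0.65 on the log2 scale. The receptor Rarb (0.55, adjusted p = 0.726) and the gut-homing receptor Ccr9 (0.12, adjusted p = 0.793) were not called. None of 12 tested genes of gut homing was called, and 3 of the 12 had a positive log2 fold change.

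Genes of varied roles also differed strongly. Erv3, an endogenous retroviral element whose copies may share reads, averaged 7.96 ± 1.85 CPM in ileal and 0.654 ± 0.283 CPM in colonic nodes (log2 fold change 3.53, SE 0.34, adjusted p = 1e-09). Col6a6, a chain of collagen VI, averaged 10.3 ± 1.71 CPM in ileal and 1.91 ± 0.778 CPM in colonic nodes (log2 fold change 2.46, SE 0.24, adjusted p = 1.1e-09). Tbxas1, the thromboxane synthase, averaged 40.2 ± 7.63 CPM in ileal and 9.37 ± 1.83 CPM in colonic nodes (log2 fold change 2.11, SE 0.26, adjusted p = 1.3e-07). Each of these groups was fully separated. Hk3, a hexokinase of myeloid cells, averaged 94.1 ± 9.79 CPM in ileal and 23.6 ± 6.44 CPM in colonic nodes (log2 fold change 2.00, SE 0.19, adjusted p = 4.2e-10). Cyp1b1, a cytochrome P450 that oxidises steroids and retinoids, averaged 204 ± 25.2 CPM in ileal and 71.8 ± 8.92 CPM in colonic nodes (log2 fold change 1.51, SE 0.13, adjusted p = 7.4e-11). Ednrb, an endothelin receptor, averaged 60.8 ± 16.9 CPM in ileal and 20.7 ± 2.49 CPM in colonic nodes (log2 fold change 1.56, SE 0.22, adjusted p = 3.7e-06).

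Stromal genes were divided. Of 20 tested genes of adventitial and capsular fibroblasts 4 were higher and 0 lower, among them the proteoglycan Lum, which averaged 43.5 ± 6.32 CPM in ileal and 23.6 ± 5.69 CPM in colonic nodes (log2 fold change 0.89, SE 0.18, adjusted p = 0.00083), and the Wnt inhibitor Sfrp1 (1.04, adjusted p = 0.00035). The median of that list was -0.29, and 2 were higher without colonic library 3. Of 35 tested collagen genes 2 were higher and 0 lower (1 higher without colonic library 3). That is 5.71% called, near the 5.13% of all genes, and the higher gene Col14a1 is counted in the fibroblast list too. Of 13 medullary reticular cell genes 0 were higher and 3 lower, among them Igfbp3, a binding protein for insulin-like growth factors, at 30.7 ± 5.13 CPM in ileal and 52.3 ± 9.03 CPM in colonic nodes (log2 fold change -0.77, SE 0.12, adjusted p = 1e-05), and the bone morphogenetic protein antagonist Grem1 (-0.44, adjusted p = 0.00677). Grem1 is also counted with T zone reticular cell genes. The third lower gene, Nr4a1, is also counted with the monocyte and the immediate early genes. Without ileal libraries 2 or 3 or colonic library 3, 2 medullary genes were lower. Rgs5, a pericyte gene, averaged 26.01 ± 3.68 CPM in ileal and 52.2 ± 9.77 CPM in colonic nodes (log2 fold change -1.01, SE 0.14, adjusted p = 1.5e-06), the 1 lower gene of 13 in its list (2 without ileal library 3). The pericyte list thus had 7.69% called, near the 5.13% of all genes. Mmp3, a matrix protease (chr9:7445822-7455975, plus strand), measured 1.43, 2.12, 3.14, 1.90 and 1.28 CPM in ileal libraries, against 5.99, 6.42, 8.49, 5.46 and 10.9 CPM in colonic libraries (log2 fold change -1.91, SE 0.26, adjusted p = 8.6e-07).

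Other myeloid and cytotoxic genes were called singly. Itgam, an integrin of monocytes and some dendritic cells, averaged 49.5 ± 10.9 CPM in ileal and 31.7 ± 7.59 CPM in colonic nodes (log2 fold change 0.65, SE 0.16, adjusted p = 0.00695). Of 13 tested monocyte genes, Csf1r and Itgam included, 3 were higher and 1 lower, and the median was -0.17. The lower one was the nuclear receptor Nr4a1 (-0.41, adjusted p = 0.0161), whose call was lost without ileal libraries 2 or 3 or colonic library 3 (adjusted p 0.0631 to 0.0817). The third higher monocyte gene was Fcgr1 (1.30, adjusted p = 0.0455). Its call was lost without ileal libraries 1, 3 or 4 or colonic libraries 1, 2, 3, 4 or 5 (adjusted p 0.054 to 0.164). Sirpa, an inhibitory receptor of macrophages and type 2 dendritic cells, averaged 191 ± 8.48 CPM in ileal and 149 ± 3.47 CPM in colonic nodes (log2 fold change 0.35, SE 0.07, adjusted p = 0.00047). Cadm1, an adhesion molecule of type 1 dendritic cells, was higher too (0.78, adjusted p = 0.00113). The other genes that define dendritic cell types were mostly not called, with 2 higher and 0 lower of 13 tested for type 1, and 2 higher and 3 lower of 20 for type 2 and migratory cells. The type 1 count was 1 without ileal library 2 or colonic library 2 or 3. In the type 2 and migratory list Itgam and Sirpa were higher and Clec10a, Ccl5 and Cd200 lower. Cd200 (-0.49, adjusted p = 0.0346) was not called without ileal libraries 1, 2, 3, 4 or 5 or colonic libraries 1, 2 or 3 (adjusted p 0.0505 to 0.139). The lower count of that list was 2 or 3 without single libraries and 1 without colonic libraries 2 and 4. Csf3r, the receptor for granulocyte colony-stimulating factor, averaged 27.8 ± 4.80 CPM in ileal and 15.4 ± 1.65 CPM in colonic nodes (log2 fold change 0.84, SE 0.17, adjusted p = 0.00079). It was the 1 higher of 12 neutrophil genes, whose median was -0.19, and the chemokine receptor Cxcr2 was the 1 lower gene (-0.52, adjusted p = 0.0346). The call of Cxcr2 was lost without ileal libraries 2 or 5 or colonic libraries 1, 2, 3 or 4 (adjusted p 0.0792 to 0.188). The chemokine Ccl5 averaged 145 ± 38.5 CPM in ileal and 230.3 ± 52.4 CPM in colonic nodes (log2 fold change -0.69, SE 0.17, adjusted p = 0.00625). Gzma, a protease of cytotoxic cells, averaged 11.1 ± 1.53 CPM in ileal and 4.47 ± 1.90 CPM in colonic nodes (log2 fold change 1.30, SE 0.30, adjusted p = 0.00388). Without colonic libraries 2 and 4 neither Ccl5 (adjusted p = 0.18) nor Gzma (adjusted p = 0.104) was called.

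Hox genes carry the position of a cell along the body axis, and groups 9 and 10 mark more posterior positions than low-numbered groups. Of 25 tested Hox genes 4 were lower and 1 was higher in ileal nodes. Leaving out single libraries gave 3 or 4 lower and 0 to 4 higher Hox genes, with 4 higher without ileal library 5 and 0 without ileal library 3 or 4 or colonic library 3 or 4. Hoxc10 (chr15:102966796-102971893, plus strand) measured 0.130, 0.423, 0.330, 0.146 and 0 CPM in ileal libraries, against 2.45, 3.31, 3.70, 2.13 and 3.73 CPM in colonic libraries (log2 fold change -3.84, SE 0.47, adjusted p = 2.6e-07), from 6.94 estimated counts over the 5 ileal and 101 over the 5 colonic libraries. Hoxa10 (chr6:52231197-52240854, minus strand) measured 0.391, 0.706, 0.165, 0.439 and 0 CPM in ileal libraries, against 2.59, 2.07, 4.25, 1.46 and 2.18 CPM in colonic libraries (log2 fold change -2.86, SE 0.59, adjusted p = 0.00098). Hoxa9 (chr6:52223100-52231089, minus strand) measured 1.82, 0.564, 0.991, 0.439 and 0.349 CPM in ileal libraries, against 4.36, 3.10, 4.25, 4.79 and 3.11 CPM in colonic libraries (log2 fold change -2.24, SE 0.52, adjusted p = 0.00399). For these 3 genes every ileal library lay below every colonic one. The call of Hoxc9 (-1.30, adjusted p = 0.0241) was lost without ileal libraries 4 or 5 or colonic libraries 1 or 5 (adjusted p 0.0601 to 0.152). The call of Hoxb6, which was higher (0.82, adjusted p = 0.0267), was lost without ileal libraries 3 or 4 or colonic libraries 3, 4 or 5 (adjusted p 0.0534 to 0.116). Hoxd10 measured 7.29, 3.10, 8.42, 6.44 and 3.02 CPM in ileal and 2.04, 4.14, 3.83, 2.66 and 3.11 CPM in colonic libraries and was not called (0.85, adjusted p = 0.0708).

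Hoxa9 and Hoxa10 are neighbours on chromosome 6 and were lower together, so their promoters are shown with that of Bpifb3, the named gene with the largest negative fold change (chr2:153918230-153932996, plus strand). Bpifb3, of a family of lipid-binding proteins, measured 0, 0.141, 0.495, 0.293 and 0.116 CPM in ileal libraries, against 2.99, 4.76, 5.48, 7.59 and 6.37 CPM in colonic libraries (log2 fold change -4.67, SE 0.61, adjusted p = 4.8e-07), from 7.00 and 183 estimated counts over the ileal and colonic libraries. The promoters lie at chr6:52227321-52227620 (minus strand), chr6:52240805-52241104 (minus strand, the first of 2 entries) and chr2:153917948-153918247 (plus strand, the first of 2 entries) in RefSeq on GRCm38.p6, with that of Hoxa9 inside the longer GENCODE span of the gene. They were searched on both strands for the motifs given above and for TTTATG, a motif of CDX factors, which 11.9% of the 32851 promoters hold. The promoter of Hoxa9 holds 4 matches to GAGGAA, in capitals, and none to the others. The promoters of Hoxa10 and Bpifb3 hold none of the 4 motifs in these windows.
Hoxa9: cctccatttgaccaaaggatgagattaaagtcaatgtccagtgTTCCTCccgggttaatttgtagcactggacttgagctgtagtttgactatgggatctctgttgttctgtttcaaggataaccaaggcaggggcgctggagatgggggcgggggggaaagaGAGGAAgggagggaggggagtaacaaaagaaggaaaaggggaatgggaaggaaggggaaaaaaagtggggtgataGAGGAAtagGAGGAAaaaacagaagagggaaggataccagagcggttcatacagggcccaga
Hoxa10: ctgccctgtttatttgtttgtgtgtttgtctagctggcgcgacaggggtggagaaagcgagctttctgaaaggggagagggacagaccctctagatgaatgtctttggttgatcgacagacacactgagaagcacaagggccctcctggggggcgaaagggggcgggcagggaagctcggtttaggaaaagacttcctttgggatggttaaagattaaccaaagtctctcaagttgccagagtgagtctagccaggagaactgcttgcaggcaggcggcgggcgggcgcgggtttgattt
Bpifb3: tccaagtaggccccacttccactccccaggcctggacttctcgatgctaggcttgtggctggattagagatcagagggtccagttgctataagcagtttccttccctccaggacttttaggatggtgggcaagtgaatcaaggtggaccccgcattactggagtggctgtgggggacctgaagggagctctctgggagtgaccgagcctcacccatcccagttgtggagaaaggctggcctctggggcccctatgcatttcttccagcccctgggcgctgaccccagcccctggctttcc

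Il22ra2, a soluble receptor that binds and blocks interleukin 22, measured 33.99, 41.8, 33.2, 55.8 and 28.8 CPM in ileal libraries, against 67.8, 60.02, 89.8, 66.7 and 91.1 CPM in colonic libraries (log2 fold change -0.95, SE 0.23, adjusted p = 0.00521). The groups did not overlap, and no other of 8 tested genes of the interleukin 22 axis was called (2 were lower without ileal library 4). That is 12.5% of a short list called, beside 5.13% of all genes. Without the ileal and colonic libraries that held pancreatic RNA, Il22ra2 had a log2 fold change of -0.78 and an adjusted p of 0.0657. Thbs4, a matrix thrombospondin, averaged 3.31 ± 0.514 CPM in ileal and 8.89 ± 1.90 CPM in colonic nodes (log2 fold change -1.43, SE 0.24, adjusted p = 4.6e-05). Adam11, of the disintegrin family, averaged 16.3 ± 5.11 CPM in ileal and 41.4 ± 6.43 CPM in colonic nodes (log2 fold change -1.37, SE 0.22, adjusted p = 3.1e-05).

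B cell and plasma cell genes held no calls, and T cell genes held mostly lower ones. None of 16 tested B cell genes was called (1 was lower without colonic library 5), and all 16 log2 fold changes were below 0 (median -0.15). None of 20 plasma cell genes, 8 antibody heavy chain constant genes or 13 germinal centre genes was called. Igha, the heavy chain of IgA, measured 1408, 2621, 3309, 4254 and 2409.9 CPM in ileal and 2417, 2102, 2158, 2929 and 2595 CPM in colonic libraries, which overlapped (0.16, adjusted p = 0.931). Of 20 T cell genes 4 were lower and 1 was higher, which is 25% called, beside 5.13% of all genes. Trac, the constant region of the T cell receptor alpha chain, measured 151, 122, 162, 126 and 196 CPM in ileal and 181, 187, 224, 224 and 213 CPM in colonic libraries, with ileal library 5 above colonic libraries 1 and 2 (log2 fold change -0.44, SE 0.10, adjusted p = 0.00252). The other lower genes were the signalling subunit Cd3e (-0.42, adjusted p = 0.0154), the interleukin 7 receptor Il7r (-0.46, adjusted p = 0.0362) and the transcription factor Lef1 (-0.39, adjusted p = 0.0439). Cd3e was not called without ileal libraries 2 or 4 or colonic library 4 (adjusted p 0.0531 to 0.0975). Il7r was not called without ileal libraries 1, 2, 3, 4 or 5 or colonic libraries 3, 4 or 5 (adjusted p 0.0593 to 0.147), and Lef1 was not called without ileal libraries 2, 3, 4 or 5 or colonic libraries 1, 2, 3 or 4 (adjusted p 0.0622 to 0.177). The count of lower T cell genes was 1 without ileal library 2 or 4 or colonic library 4, 2 without ileal library 3 or colonic library 3, 5 without ileal library 1 or colonic library 2 or 5, and 6 without ileal library 5 or colonic library 1. The higher T cell gene was Igfbp4 (0.65, adjusted p = 2.9e-05), which stromal cells also express.

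Single antibody variable segments gave some of the largest differences. Of 90 tested heavy chain variable segments 1 was higher and 2 were lower, and of 85 kappa segments 0 were higher and 1 was lower. Of the 175 tested genes annotated as antibody variable segments 2.29% were called, a smaller share than the 5.13% of all genes. Ighv7-3 measured 45.6, 101, 149, 225 and 54.5 CPM in ileal and 29.3, 36.8, 36.98, 13.4 and 27.97 CPM in colonic libraries (1.97, adjusted p = 0.00366). Ighv1-7 measured 7.42, 1.69, 2.15, 15.1 and 24.9 CPM in ileal and 552, 18.4, 11.8, 84.2 and 10.6 CPM in colonic libraries (-3.35, adjusted p = 0.0145). Colonic library 1 alone held most of the colonic level, and the call was lost without ileal libraries 1 or 2 or colonic library 1 (adjusted p 0.0634 to 0.29). The calls of Ighv1-18 (-2.63, adjusted p = 0.0116) and Igkv4-53 (-2.71, adjusted p = 0.0203) were lost without colonic library 2 (adjusted p = 0.069) and without ileal libraries 2, 3 or 4 or colonic libraries 2 or 4 (adjusted p 0.0514 to 0.134), in that order. Reads of these near-identical segments can be split among them.

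Markers of tissues that surround a node were read beside these results. Adipocyte genes had 0 of 17 members called and a median log2 fold change of -0.80. Their summed share of counts was 0.0850% to 0.226% in ileal and 0.150% to 0.389% in colonic libraries, and Adipoq averaged 70.5 ± 32.3 CPM in ileal and 148 ± 75.99 CPM in colonic nodes. Mesothelial genes had 1 of 14 members higher, Gpm6a (0.71, adjusted p = 0.00921), which other cell types also express, and a median of -1.24. That is 7.14% called, near the 5.13% of all genes. Gpm6a was not called without colonic libraries 2 and 4 (adjusted p = 0.0675). Leaving out colonic library 2 or 3 gave 1 lower mesothelial gene, and leaving out colonic library 5 gave 2. The mesothelial share was 0.00494% to 0.00868% in ileal and 0.00663% to 0.0208% in colonic libraries, with Msln at 2.04 ± 1.55 CPM in ileal and 4.78 ± 1.81 CPM in colonic nodes. None of the 21 pancreatic, 10 intestinal epithelial, 8 liver, 3 skeletal muscle and 9 glial genes tested was called. The part of fat and mesothelium in the genes lower in ileal nodes was not tested.

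**Figure D3:**
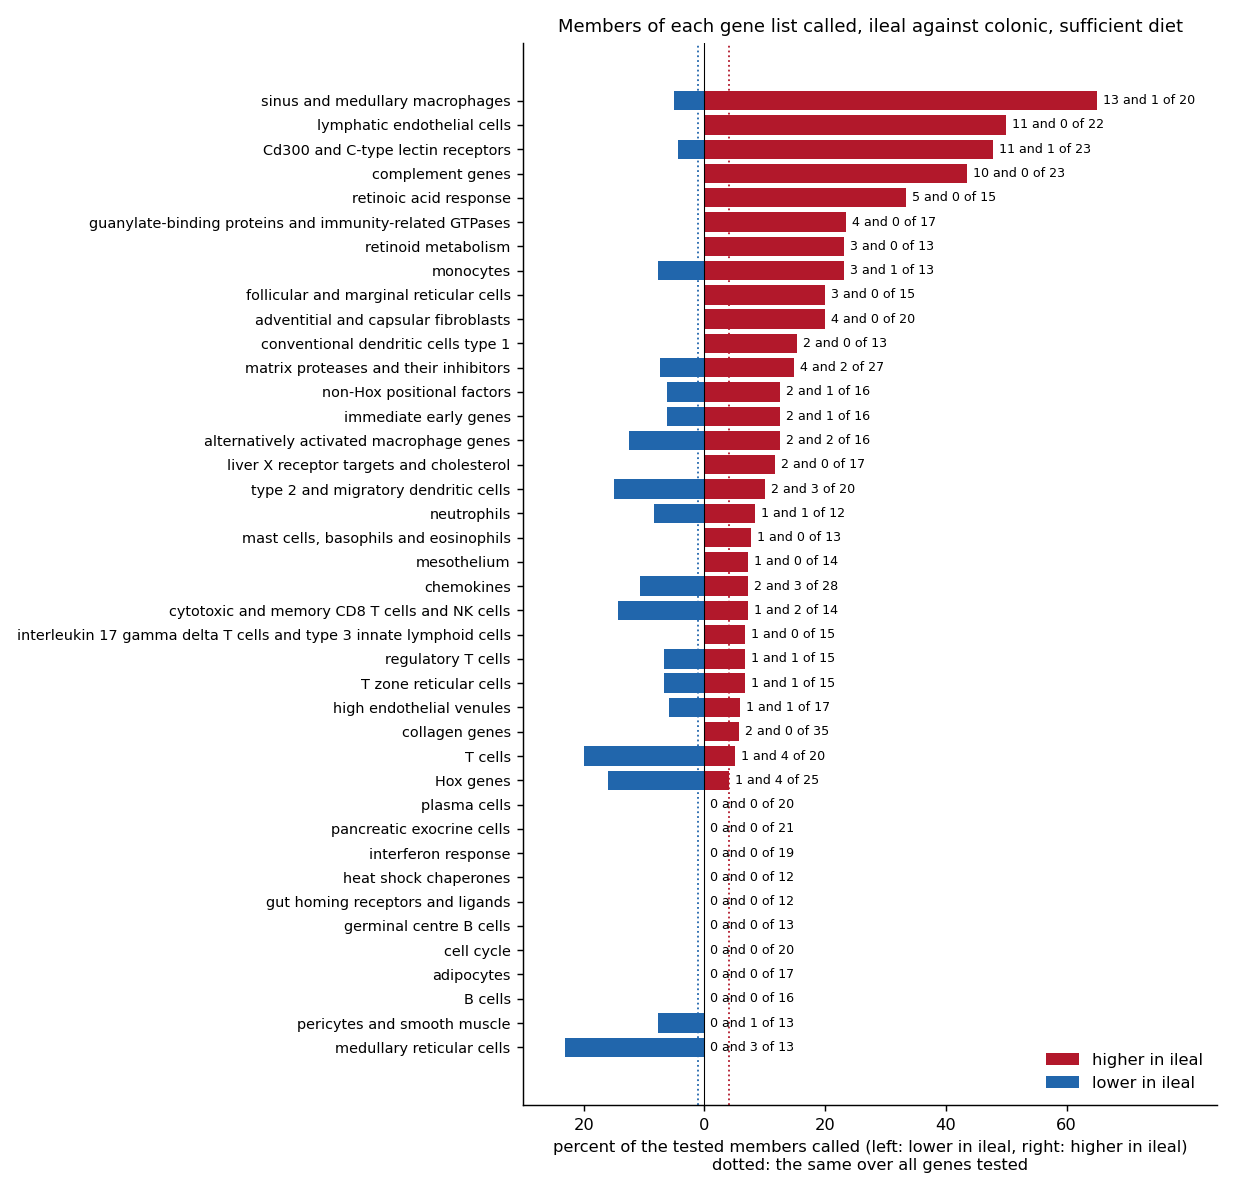
Percent of tested members called higher (red, right) or lower (blue, left) in ileal nodes for the 40 gene lists with at least 12 tested members, with counts higher and lower beside each bar and dotted lines for all genes (4.09% higher, 1.04% lower). Sinus and medullary macrophages (13 and 1 of 20) and lymphatic endothelial cells (11 and 0 of 22) have the largest shares of higher calls, and B cells, plasma cells and the interferon response have none.

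Ileal and colonic nodes were each also compared with the duodenal and jejunal nodes on the same diet. Against the mean of those nodes 832 genes (4.6%) were called in ileal nodes and 588 (3.25%) in colonic nodes, and these tests share libraries with the main one, so the values are given side by side. The first count was 504 without ileal library 4 and the second 389 without colonic library 3. Of the genes higher in ileal than in colonic nodes 253 of 740 were called in neither of these tests, and of the lower ones 98 of 188. For Il22ra2 the means were 11.2 ± 4.92, 11.99 ± 2.83, 38.7 ± 10.6, 75.1 ± 14.3 and 79.5 ± 15.3 CPM in duodenal, jejunal, ileal, colonic and inguinal nodes. Its ileal level was above the duodenal and jejunal ones (log2 fold change 1.73, SE 0.20, adjusted p = 1.9e-07), and its colonic level was further above them (log2 fold change 2.68, SE 0.20, adjusted p = 3.2e-13). For Hoxc10 the means in the same order were 0.0276 ± 0.0618, 0.0869 ± 0.0803, 0.206 ± 0.169, 3.06 ± 0.734 and 1.99 ± 0.856 CPM, and the ileal level was not called against duodenal and jejunal nodes (1.62, adjusted p = 0.279) while the colonic one was (5.46, adjusted p = 1.7e-11). Timd4, at 55.98 ± 8.37, 44.4 ± 6.24, 59.6 ± 10.3, 124 ± 16.5 and 173 ± 20.5 CPM, and Mmp3, at 1.44 ± 0.307, 1.99 ± 0.667, 1.97 ± 0.734, 7.45 ± 2.24 and 8.44 ± 3.70 CPM, had colonic levels between the ileal and inguinal means.

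Other genes had a different order along the nodes. Adgre1 averaged 43.7 ± 8.91, 83.02 ± 12.9, 83.00 ± 8.04, 16.96 ± 4.08 and 16.8 ± 3.32 CPM, so that the jejunal and ileal means were within 1 SD of each other and so were the colonic and inguinal means. It was not called in ileal nodes (0.46, adjusted p = 0.0722) and was lower in colonic nodes (-1.84, adjusted p = 7e-10) against duodenal and jejunal nodes. Gbp2b averaged 53.7 ± 7.90, 90.6 ± 26.5, 87.3 ± 7.63, 11.6 ± 5.06 and 8.37 ± 0.796 CPM, and Aldh1a2 averaged 55.1 ± 16.9, 49.4 ± 4.48, 36.96 ± 7.28, 17.3 ± 2.65 and 2.57 ± 0.418 CPM. Both were lower in colonic nodes (-2.61, adjusted p = 1.2e-09 and -1.59, adjusted p = 2.2e-05) and not called in ileal nodes (0.32, adjusted p = 0.494 and -0.49, adjusted p = 0.267). Cd5l and Ednrb instead stood highest in ileal nodes. Cd5l averaged 18.1 ± 7.98, 24.9 ± 4.87, 177 ± 53.4, 39.9 ± 24.8 and 13.5 ± 4.37 CPM (3.07, adjusted p = 7.8e-11 for ileal and 0.86, adjusted p = 0.0744 for colonic against duodenal and jejunal nodes). Ednrb averaged 9.92 ± 1.24, 20.98 ± 3.32, 60.8 ± 16.9, 20.7 ± 2.49 and 7.24 ± 1.04 CPM (2.07, adjusted p = 1.4e-10 and 0.52, adjusted p = 0.173). Syndig1l, a synaptic protein relative, averaged 0.258 ± 0.200, 0.533 ± 0.318, 5.81 ± 3.19, 8.42 ± 1.93 and 7.61 ± 2.65 CPM. It was higher in both ileal (3.85, adjusted p = 7.8e-11) and colonic nodes (4.40, adjusted p = 3.2e-13) against duodenal and jejunal nodes, and was not called between ileal and colonic nodes (-0.55, adjusted p = 0.403).

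**Figure D4:**
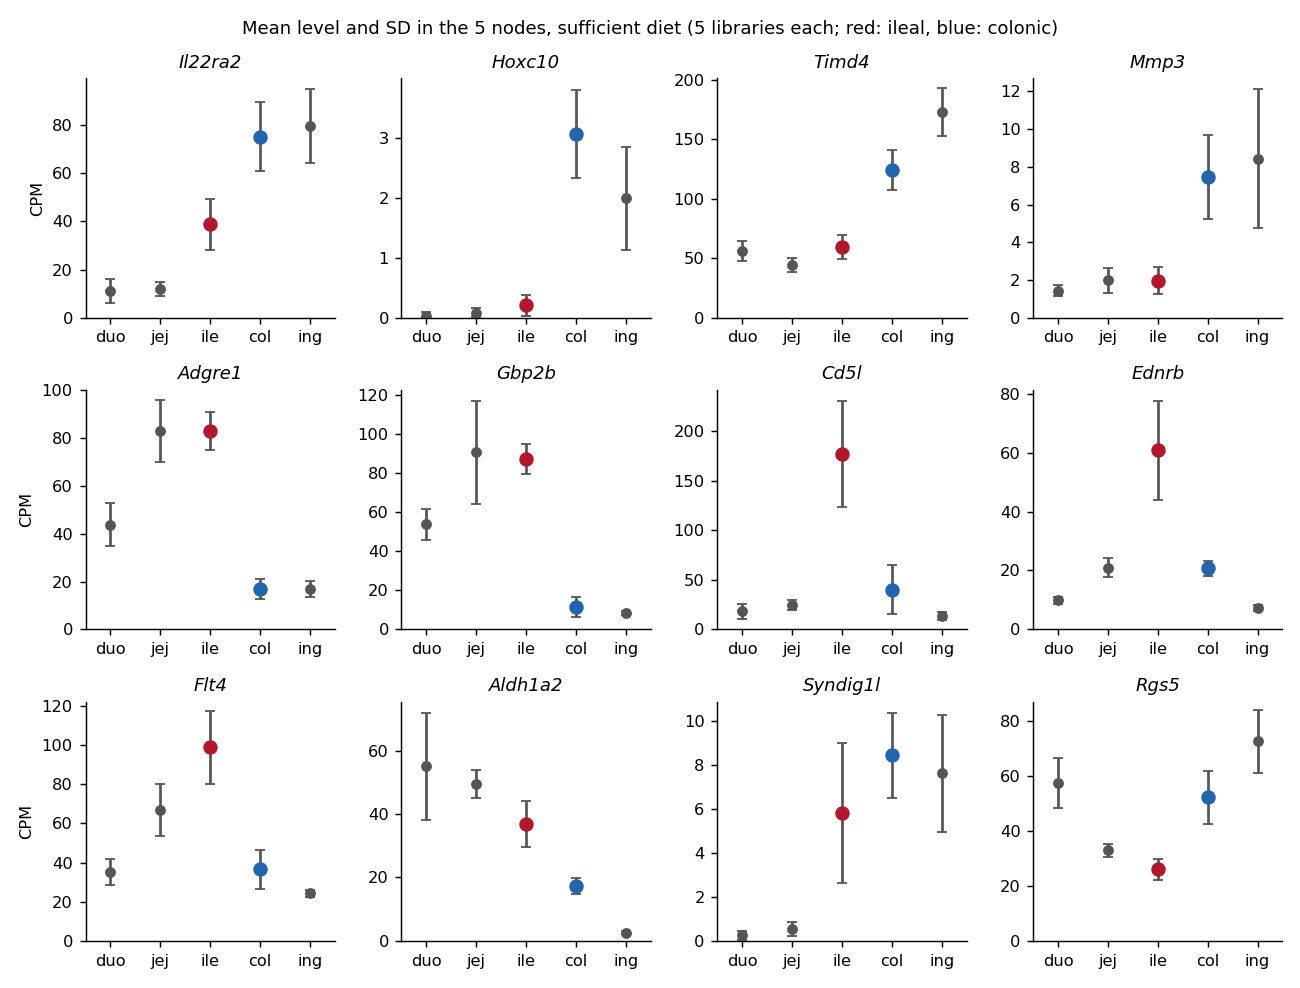
Mean level and SD (CPM) of 12 genes in duodenal (duo), jejunal (jej), ileal (ile, red), colonic (col, blue) and inguinal (ing) nodes on the sufficient diet, 5 libraries each. Il22ra2 averages 38.7 CPM in ileal and 75.1 CPM in colonic nodes, Cd5l and Ednrb stand highest in ileal nodes, and Aldh1a2 averages 37.0 CPM in ileal and 17.3 CPM in colonic nodes, below its duodenal mean of 55.1 CPM.

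The same nodes on the deficient diet, from separate libraries that were all female, gave 214 called genes (1.18%), 179 higher and 35 lower. The count was 130 without deficient ileal library 4, 139 without deficient colonic library 3 and 128 without deficient colonic library 5. Of the 214, 149 were called with the same sign on the sufficient diet, which is 69.6% of the deficient and 16.1% of the sufficient calls, and 0 were called with opposite signs. The difference between the diets in the ileal to colonic difference was itself called for no gene by edgeR (0%), with 1038 genes at an unadjusted p under 0.05, 14 calls by DESeq2, 0 by limma-voom and 0 to 4 by edgeR when single libraries were left out. Genes higher in ileal nodes on the sufficient diet had a median log2 fold change of 0.33 on the deficient diet and 0.72 on the sufficient diet, and the lower ones had -0.11 on the deficient diet and -0.65 on the sufficient diet. The sufficient values are those of genes selected on them and the deficient ones are not.

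Single genes on the deficient diet are given as levels. Col6a6 averaged 6.79 ± 2.56 CPM in ileal and 1.51 ± 0.305 CPM in colonic nodes (log2 fold change 2.15, SE 0.24, adjusted p = 2.2e-07), Ednrb averaged 76.3 ± 13.4 CPM in ileal and 24.5 ± 15.1 CPM in colonic nodes (log2 fold change 1.64, SE 0.22, adjusted p = 8.4e-06), and Hoxc10 averaged 0.214 ± 0.0988 CPM in ileal and 2.33 ± 0.339 CPM in colonic nodes (log2 fold change -3.35, SE 0.45, adjusted p = 1.4e-05). All 3 were thus called on both diets. Adgre1 averaged 46.8 ± 8.73 CPM in ileal and 20.8 ± 4.89 CPM in colonic nodes (log2 fold change 1.17, SE 0.19, adjusted p = 0.0001). Aldh1a2 was low in both, at 2.99 ± 2.02 CPM in ileal and 2.33 ± 1.47 CPM in colonic nodes, and was not called (0.33, adjusted p = 0.94). Igha averaged 3381 ± 804 CPM in ileal and 897 ± 527 CPM in colonic nodes (log2 fold change 1.91, SE 0.43, adjusted p = 0.0101), where it had not been called on the sufficient diet, and the difference between the diets was not called (sufficient minus deficient -1.76, adjusted p = 0.533). Without 10 deficient libraries in which the predicted gene Gm19220 took 1.03% to 1.70% of counts, against 5.37% to 9.83% in the other 40 libraries of the series, 3 ileal and 2 colonic deficient libraries were left and 22 genes were called.

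**Figure D5:**
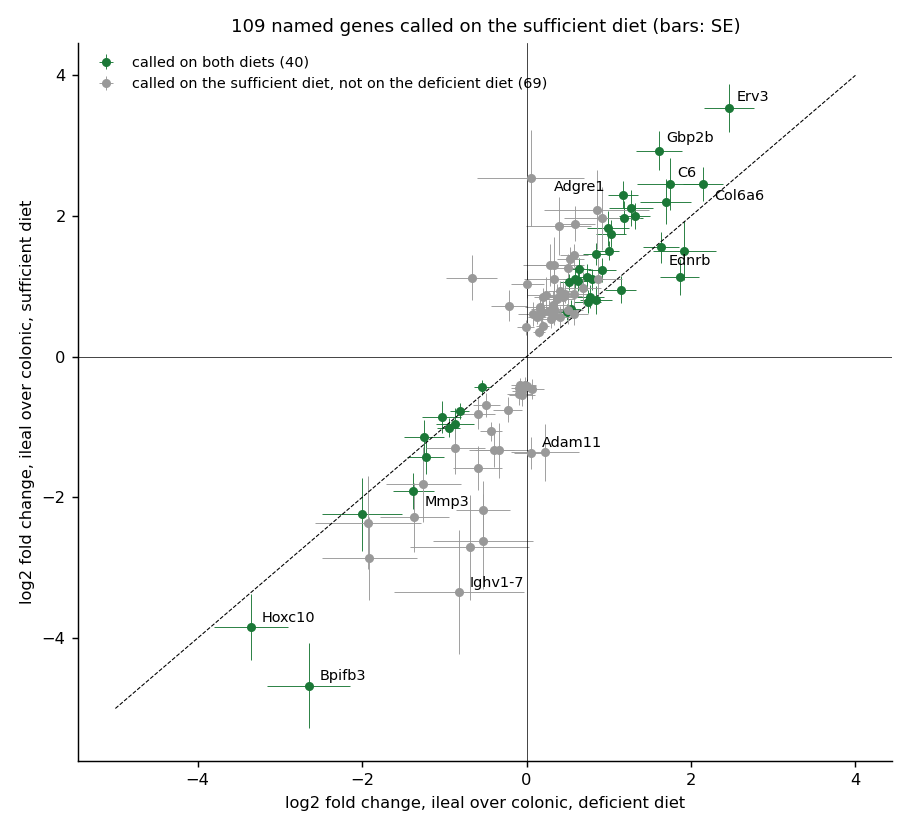
Log2 fold change of ileal over colonic nodes on the deficient diet (horizontal axis) against that on the sufficient diet (vertical axis) for the 109 named genes called on the sufficient diet, with SE bars and a dashed line of equal values. The 40 genes called on both diets (green) have the same sign on both, and many of the other 69 (grey) lie near 0 on the deficient diet.

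The sexes were compared within the sufficient diet. A difference between males and females in the ileal to colonic difference was called for no gene by edgeR (0%), with 871 genes at an unadjusted p under 0.05, 5 calls by DESeq2, 0 by limma-voom and 0 to 5 by edgeR when single libraries were left out. Males alone, 3 ileal against 3 colonic libraries, gave 434 higher and 38 lower genes, and females alone, 2 against 2, gave 73 higher and 16 lower genes. The spread came from 15 male libraries, all sufficient, in the first fit and from 35 female libraries, the deficient ones included, in the second. Of complement genes 11 were higher in males alone and 1 in females alone, and of retinoic acid response genes 5 in males alone and 0 in females alone. Adgre1, Csf1r, Flt4, Prox1, Timd4, Hoxc10, Mmp3 and Bpifb3 were called in each sex alone.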

How the data were processed

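RNA sequencing of 50 mouse lymph node libraries was read from a deposited table of estimated counts per gene, made by the authors. Per the submitters' processing notes, the tools were kallisto, edgeR and limma, with mm10 and GRCm39 as builds; their versions and roles are unstated. Of nonzero values 0.122% were whole (to within 1e-06), and they were rounded. The table has 56600 gene entries, and 379 without a name were kept by identifier. Columns not marked control were taken as deficient.

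Ileal and colonic libraries on the sufficient diet were compared in edgeR 4.0.16 (R 4.3.3), fitting all 50 libraries with group and sex, TMM scaling, filterByExpr and a quasi-likelihood test. P-values were Benjamini-Hochberg adjusted over 18077 genes, and calls had an adjusted p under 0.05. CPM values are TMM-scaled, with errors as SD over 5 libraries. Estimated counts per library were 5335369 to 8487925. Fits were tested on simulated data.

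The members and gene lists were chosen with earlier results of these data known. Named genes were up to 15 per direction by fold change at 5 CPM or more, up to 4 per list by adjusted p, a set list, and up to 5 per direction for each other comparison. Other called or listed members are named to describe their lists. Some members are counted in their lists but not reported singly here. Positions came from GENCODE M21 for 51486 of 56600 identifiers. Alternatives covered scaling (RLE), low-count filters, DESeq2 1.42.0, limma-voom (limma 3.58.1), the sex term, the libraries fitted, a replicate block, and single libraries left out. Leaving out libraries high in ribosomal or pancreatic RNA or low in Gm19220 was chosen after seeing the data. Because all deficient libraries were female and from other dams, litter and dam cannot be told apart from diet.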

Additional observations from a re-analysis of the deposited data

Results flagged for a closer look

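In 15 of 256 groups of 5 libraries, 1 library stood farther from the others than Dixon's limit of 0.71 of the group's range, and chance alone gives about 1 in 20. The values are CPM. Ileal library 1 stood low for Igfbp4 at 440 (others 620 to 675), Clu at 1150 (1496 to 1633), Igfbp3 at 21.9 (30.9 to 34.3) and Cdkn2a at 5.21 (8.04 to 8.75). Ileal library 2 was low for Asb2 at 59.4 (81.3 to 86.9), and ileal library 5 was high for Cyp26b1 at 13.02 (4.43 to 6.00).

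Colonic library 2, which had the most ribosomal RNA, stood high for C1qc at 184 (142 to 149), Adamts9 at 15.1 (5.90 to 8.08) and Clec4g at 20.1 (8.08 to 9.19). Colonic library 5, which also held pancreatic RNA, was high for C6 at 14.6 (3.54 to 5.59) and Tet1 at 21.4 (5.59 to 8.92) and low for Cd300ld5 at 1.24 (8.69 to 10.4). Colonic library 1 was low for Nr1h3 at 43.7 (54.4 to 57.5) and high for Adam11 at 52.5 (37.0 to 41.0) and Ighv1-7 at 552 (10.6 to 84.2). The calls of Tet1, Cd300ld5 and Ighv1-7 were lost without some single libraries. Tet1 was lost without ileal libraries 2, 3 or 4 or colonic library 5 (adjusted p 0.0757 to 0.272). Cd300ld5 was lost without ileal libraries 1, 2, 3 or 5 or colonic libraries 1, 2, 3 or 4 (adjusted p 0.0521 to 0.109), and Ighv1-7 without ileal libraries 1 or 2 or colonic library 1 (adjusted p 0.0634 to 0.29).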

How the results depend on the processing

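Of the 928 called genes 136 were followed under all alternatives, and 0 of them reversed. They were the called named genes and list members, picked in part by fold change and adjusted p in these data. Their counts therefore do not describe all 928. Of the 136, 23 were called under every one, 54 lost the call with the female libraries only and nowhere else, and 40 lost it without at least 1 single library. The total of 928 calls was 577 with the libraries of the compared groups only, 89 with female and 472 with male libraries only. The 740 higher genes became 73 with female and 434 with male libraries only. The 188 lower genes became 85 with no filter, 66 with the compared groups only, 16 with female and 38 with male libraries only, and 104 without the colonic libraries high in ribosomal RNA. The no-filter fit raised the share of higher calls to 88.1%, against 79.7%. Deficient calls fell to 22 without the libraries low in Gm19220. The diet difference gave 14 genes by DESeq2, 6 with the replicate block and 1 without those libraries, and the sex difference 5 by DESeq2. The cause of these changes was not tested, and fits that left libraries out also had fewer libraries. The fit of female libraries included all deficient libraries, and the fit of male libraries included none.

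Leaving out single libraries gave 697 to 950 calls in the main comparison, 568 to 784 higher and 102 to 210 lower. It gave 128 to 292 in the deficient comparison, 0 to 4 for the diet difference and 0 to 5 for the sex difference. Ileal against duodenal and jejunal nodes gave 504 to 838, and colonic against them 389 to 649. Same-number correlations of deviations from the group means ran from -0.07 to 0.40, and 4 of 5 ileal libraries correlated best with their own number. For deviations from the means of each group and sex they ran from 0.0892 to 0.350. Ileal libraries 3, 4 and 5 then correlated best with their own number. The labels name no shared source, so the number was left out of the main fit. A source shared by same-numbered libraries was not tested. With the number as a replicate block the calls were 1121 in the main comparison, 305 deficient, 1062 for ileal and 808 for colonic against duodenal and jejunal nodes.

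The genes that reversed were not called. Madcam1 (-0.01) was 0.0028 with no filter, 0.00069 by limma-voom, 0.0603 in males, 0.0207 without the high ribosomal libraries, 0.0167 without the high pancreatic libraries and -0.0858 to 0.0800 without single libraries. Msmo1 (0.03) was -0.012 in males, -0.139 without the high ribosomal libraries and -0.0804 to 0.139 without single libraries. Gpr15 (-0.09) was 0.0279 in females, 0.0331 without the high pancreatic libraries and 0.0038 without ileal library 5. In females Aldh1a1 was -0.41, Cyp26b1 -0.35 and Igha -0.16. Genes with few counts, such as Hoxc10, are limited by depth, and changes in such genes that were not called may be undetectable here.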

Other observations

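Some called genes lay outside the groups described so far. Ctsl, a lysosomal protease, averaged 382 ± 75.6 CPM in ileal and 212 ± 15.98 CPM in colonic nodes (log2 fold change 0.85, SE 0.12, adjusted p = 1.6e-06). Timp3, an inhibitor of matrix proteases, averaged 165 ± 21.3 CPM in ileal and 103 ± 5.62 CPM in colonic nodes (log2 fold change 0.68, SE 0.12, adjusted p = 9.5e-05). Meis2, a homeodomain factor that acts with Hox proteins, averaged 29.9 ± 8.85 CPM in ileal and 15.2 ± 2.62 CPM in colonic nodes (log2 fold change 0.98, SE 0.22, adjusted p = 0.00321). Lrrc32, which anchors latent transforming growth factor beta on regulatory T cells and endothelium, averaged 40.9 ± 5.23 CPM in ileal and 21.2 ± 3.47 CPM in colonic nodes (log2 fold change 0.95, SE 0.19, adjusted p = 0.00087). It was the 1 higher of 15 regulatory T cell genes, 2 of which had a positive log2 fold change, and the interleukin 2 receptor Il2ra was the 1 lower gene (-0.49, adjusted p = 0.00825). Il2ra was not called without ileal library 2 (adjusted p = 0.0617). The transcription factor Maf averaged 139 ± 32.3 CPM in ileal and 92.8 ± 9.48 CPM in colonic nodes (log2 fold change 0.57, SE 0.11, adjusted p = 0.00046), and the cell cycle inhibitor Cdkn2a averaged 7.73 ± 1.44 CPM in ileal and 2.08 ± 0.430 CPM in colonic nodes (log2 fold change 1.89, SE 0.25, adjusted p = 7.6e-07).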
